A study of Homo sapiens with 10 samples.

Results

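Claudins and their partners in the tight junction were examined as a set of 10 genes given by name, among the 58884 genes in the count tables. The set comprised 6 claudin genes (CLDN1, CLDN2, CLDN3, CLDN4, CLDN7 and CLDN12), the genes of occludin (OCLN) and tricellulin (MARVELD2), and the genes of the cytoplasmic proteins ZO-1 (TJP1) and cingulin (CGN). Each symbol matched 1 gene identifier, so all 10 were found. They were read in polyadenylated RNA from HCT116 cells, a human colorectal carcinoma line that is wild type for DNMT1, and from DNMT1 KO cells, a published derivative of HCT116 in which DNMT1 was targeted. DNMT1 encodes the maintenance DNA methyltransferase, which copies CpG methylation onto newly made DNA. The derivative lacks several DNMT1 exons but still makes a shortened protein at a low level, so it is a hypomorph, and it is a single derivative line. Both lines were grown in the same medium with no further agent. The HCT116 group held 6 libraries (replicates 1, 2, 3, 7, 8 and 9) and the DNMT1 KO group held 4 (replicates 1 to 4). The labels place replicate 1 of each group in batch 1 and replicates 2 and 3 of each group in batch 2, whereas batch 3 held DNMT1 KO replicate 4 alone and batch 4 held HCT116 replicates 7, 8 and 9 alone.

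Tight junctions seal the space between neighbouring epithelial cells. Claudins are membrane proteins that polymerise into strands, and the claudins that a cell makes set which ions and small solutes pass between cells. Occludin and tricellulin join these strands, tricellulin mainly where 3 cells meet, and ZO-1 and cingulin tie them to the actin cytoskeleton. In intestinal epithelium CLDN3, CLDN4 and CLDN7 are widely expressed, CLDN1 is regarded as a sealing claudin, and CLDN2 forms channels for cations and water. EPCAM binds CLDN7 and CLDN1 and protects them from degradation, and repressors of the SNAI and ZEB families bind E-boxes, short motifs of the letters CACCTG or CAGGTG.

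The start regions of 3 of the claudin genes are shown because the printed stretches differ in their number of CpGs, the sites that DNMT1 methylates. The stretches are the 250 bases before the annotated start in the RefSeq promoters (GRCh38.p14), written 5′ to 3′ on the gene's own strand, with each CpG in capitals. CLDN1 was higher in DNMT1 KO (chr3:190322447-190322696, minus strand), CLDN7 was lower (chr17:7263214-7263463, minus strand, the first of 2 listed starts), and CLDN3, whose groups overlapped, lies beside CLDN4 (chr7:73770271-73770520, minus strand).
CLDN1: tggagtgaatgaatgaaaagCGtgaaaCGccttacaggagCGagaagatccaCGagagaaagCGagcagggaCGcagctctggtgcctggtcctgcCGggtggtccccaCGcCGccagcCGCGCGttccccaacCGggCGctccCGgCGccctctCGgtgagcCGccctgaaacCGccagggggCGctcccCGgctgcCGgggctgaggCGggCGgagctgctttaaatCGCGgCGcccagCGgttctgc
CLDN7: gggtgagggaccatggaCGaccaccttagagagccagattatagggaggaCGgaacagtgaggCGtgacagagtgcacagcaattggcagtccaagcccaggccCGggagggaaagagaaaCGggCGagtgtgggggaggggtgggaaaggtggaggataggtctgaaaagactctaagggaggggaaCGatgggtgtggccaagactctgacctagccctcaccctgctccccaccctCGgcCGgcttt
CLDN3: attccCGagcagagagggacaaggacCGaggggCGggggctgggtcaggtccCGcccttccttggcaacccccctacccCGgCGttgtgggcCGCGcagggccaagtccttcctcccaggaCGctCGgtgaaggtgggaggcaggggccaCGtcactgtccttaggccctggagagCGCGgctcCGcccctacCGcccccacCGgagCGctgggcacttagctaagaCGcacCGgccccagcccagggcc

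The CLDN1 stretch held 28 CpGs, the CLDN3 stretch 19 and the CLDN7 stretch 9. Over the full 300 bases of each RefSeq promoter, which run on past the start, CLDN1 held 31 CpGs, CLDN3 24, CLDN4 5 and CLDN7 10 at its first start and 30 at its second start. CLDN2 held 1 and 2 CpGs at its 2 starts and CGN held 37. The median of all 35116 promoters was 14 CpGs, with quartiles of 4 and 28. CpG methylation was not measured in these libraries, and which start was used was not tested.

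DNMT1 was read first as a check of the labels. It was 153 ± 64.2 CPM (counts scaled to a common library total, with TMM factors) over the 6 HCT116 libraries and 19.5 ± 3.68 CPM over the 4 DNMT1 KO libraries (mean ± SD), a log2 fold change of -2.97 (edgeR quasi-likelihood test, adjusted p = 1.74e-05). Library totals ranged from 26700853 to 85991812 counts. Even numbers made up 64.4 to 70.0% of low counts in 9 libraries but 39.9% in DNMT1 KO replicate 4, so counts in the 9 may come from both mates of a pair and rest on fewer fragments than their number. A call needed an adjusted p under 0.05 over all 19279 genes tested and a change of more than 1 on the log2 scale in either direction. In all, 1431 genes were called higher and 1251 lower (53.4% of calls higher, or 66.3% when library totals alone set the scale). Of 7 epithelial markers, all tested, 5 were called lower and 1, VIL1, higher from near 0, beside 6.49% and 7.42% of all tested genes. Their summed level was 2611 to 6359 CPM in HCT116 and 716 to 1465 CPM in DNMT1 KO, and EPCAM and KRT8 were present in every library of both groups. Of 7 fibroblast, 6 endothelial and 5 leukocyte markers, 4, 3 and 1 were tested, and 3, 2 and 1 were called higher. The 3 fibroblast markers called higher, COL3A1, PDGFRB and LUM, had means of at most 0.301 CPM in HCT116. COL1A1 was tested and not called, at 12.5 ± 4.27 CPM in HCT116 and 6.72 ± 5.06 CPM in DNMT1 KO (log2 fold change -0.90, edgeR adjusted p = 0.183). The endothelial marker KDR was also not called. Their sums in DNMT1 KO were 16.6 to 21.4, 4.48 to 6.26 and 1.98 to 2.86 CPM, against 6.50 to 19.8, 0.349 to 1.98 and 0.158 to 0.856 CPM in HCT116. COL1A2, DCN, THY1, CDH5, CLDN5, TEK, PTPRC, CD3E, CD14 and ITGAM did not pass the filter on low counts. The part of these markers in the junction results was not tested.

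Within the set, CLDN1 was higher in DNMT1 KO and CLDN4 and CLDN7 were lower. The filter on low counts was passed by 9 of the 10 genes, with TJP1 left out. These 9 include OCLN and MARVELD2, whose counts, as set out below, are not read as RNA levels. The test called 1 gene higher, against 7.42% of all tested genes, and 2 lower, against 6.49% of all tested genes, so 3 of 9 were called in either direction beside 13.9% overall. CGN also had an adjusted p under 0.05, as did 16.1% of all genes, but its change was smaller than the fold required. The libraries of the 2 groups did not overlap for CLDN1, CLDN4 and CLDN7, and 15.2% of all tested genes showed no overlap. The median log2 fold change of the 9 genes was -0.38, beside -0.07 over all genes tested. With library totals alone the medians were -0.17 and 0.14, and the same numbers of genes in the set were called. In these bulk libraries, fewer cells expressing a gene and less RNA of it per cell cannot be told apart. The plot of CPM by library shows the 3 separated genes beside the others.

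**Figure D1:**
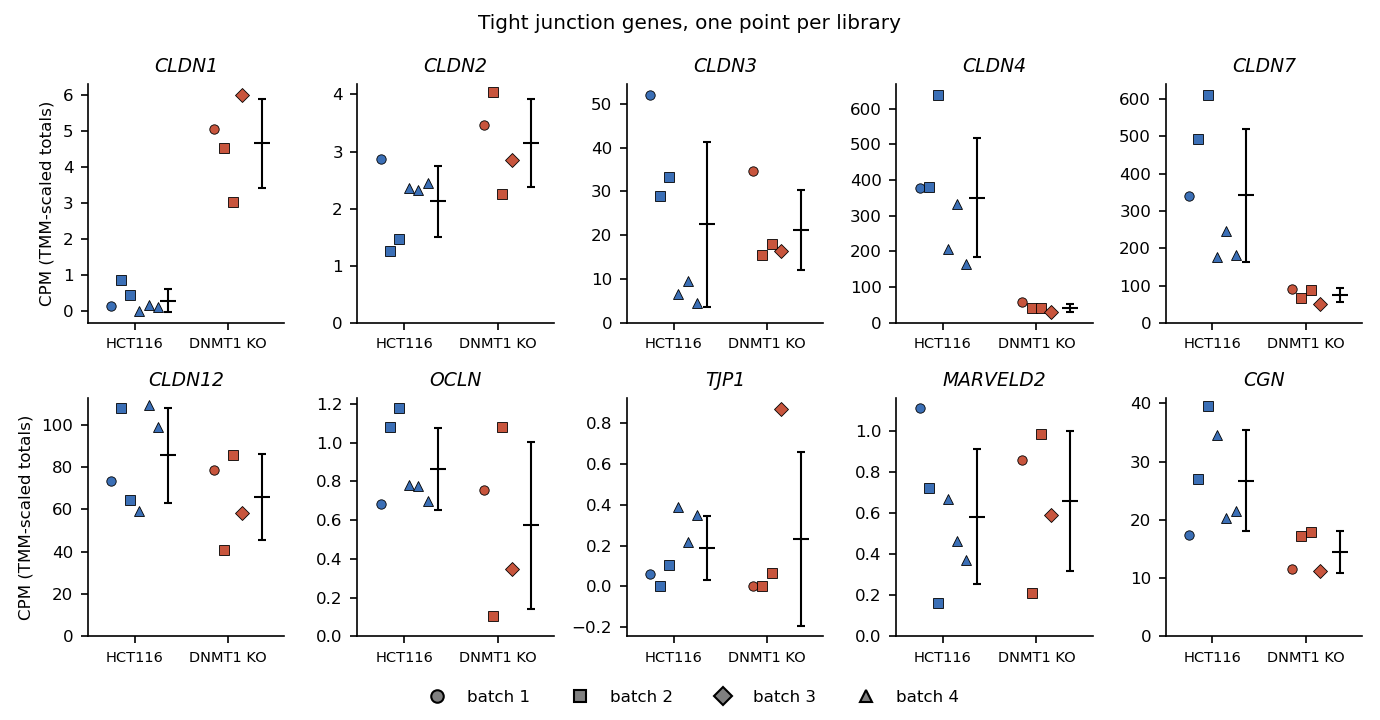
CPM of each of the 10 genes on its own linear axis, with 1 point per library (blue, HCT116; red, DNMT1 KO; marker shape, batch) and the mean ± SD of each group beside its points. CLDN1 is higher in all 4 DNMT1 KO libraries than in any HCT116 library, CLDN4 and CLDN7 are lower in all 4, and OCLN, TJP1 and MARVELD2 stay below 1.2 CPM throughout.

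CLDN4 (ENSG00000189143, chromosome 7, 73799542 to 73832690, plus strand, hg38), which encodes a barrier-forming claudin that limits the passage of cations, showed the largest decrease in DNMT1 KO among the tested genes of the set. HCT116 libraries ranged from 163 to 637 CPM (median 355). The 4 DNMT1 KO libraries measured 56.8, 41.7, 40.4 and 29.3 CPM in replicate order. The highest DNMT1 KO library was thus well under the lowest HCT116 library. The change was -3.05 on the log2 scale (SE 0.39, adjusted p = 5.18e-05 by edgeR). The difference was seen within each batch that held both groups, with log2 ratios of -2.73 in batch 1 and -3.63 in batch 2.

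CLDN7 (ENSG00000181885, chromosome 17, 7259903 to 7263983, minus strand), the claudin that binds EPCAM and is found along the lateral membrane as well as in the junction, fell by 2.20 on the log2 scale (SE 0.39, edgeR adjusted p = 0.000919). In HCT116 it ranged from 176 to 611 CPM (median 294). In DNMT1 KO replicates 1 to 4 it was 92.1, 66.3, 88.1 and 50.6 CPM. Within HCT116 the 3 libraries of batch 4 were the 3 lowest, and even these lay above all DNMT1 KO libraries. Log2 ratios were -1.89 in batch 1 and -2.84 in batch 2. Exons of CLDN7 share 10.8% of their bases with an unnamed gene on the same strand and 1.52% with ELP5 on the opposite strand, and no strand option is named for the counting.

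CLDN1 (ENSG00000163347, chromosome 3, 190305707 to 190322446, minus strand), a claudin needed for the barrier of skin and found in intestinal junctions, changed in the opposite direction. It was nearly absent from HCT116, with raw counts of 4, 38, 16, 0, 10 and 10 in replicates 1, 2, 3, 7, 8 and 9, and had 200, 254, 191 and 172 counts in the DNMT1 KO libraries. In CPM these were 0 to 0.857 (median 0.139) in HCT116 and 5.05, 4.51, 3.03 and 5.98 in DNMT1 KO. Every DNMT1 KO library lay above every HCT116 library. The fitted change was 4.09 on the log2 scale (SE 0.75, adjusted p = 0.00124 by edgeR) and 4.90 without HCT116 replicate 2, and log2 ratios were 5.35 in batch 1 and 2.55 in batch 2. A count of 0 in HCT116 replicate 7 allows up to 0.0418 CPM from counting error alone, taking 3 counts as the limit.

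CLDN3 (ENSG00000165215, chromosome 7, 73768997 to 73770270, minus strand), a further barrier-forming claudin, spread widely within the HCT116 group. The HCT116 libraries measured 52.0, 29.0 and 33.2 CPM in replicates 1 to 3 and 6.50, 9.57 and 4.61 CPM in replicates 7 to 9. The DNMT1 KO libraries measured 34.7, 15.6, 18.1 and 16.3 CPM. All batch 4 libraries of HCT116 were below all DNMT1 KO libraries, and the other HCT116 libraries were each above at least 3 of these 4. The log2 fold change over all libraries was -0.08 (SE 0.57, edgeR adjusted p = 0.943) and turned to 0.12 with library totals alone. Within batches, CLDN3 was lower in DNMT1 KO, with log2 ratios of -0.58 in batch 1 and -0.89 in batch 2. The fit of batches 1 and 2 with batch as a term gave -0.78 (edgeR adjusted p = 0.0582).

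The wide spread of CLDN3 was compared directly between batches of the same line. HCT116 batch 4 had 6.90 CPM of CLDN3 on average (n = 3) and HCT116 batches 1 and 2 had 38.1 CPM (n = 3), a log2 difference of -2.49 (SE 0.37, edgeR adjusted p = 0.00283). Of the 18656 genes tested in that comparison, 8.03% were called in either direction. CLDN7 was also called lower in batch 4, at 202 against 482 CPM (log2 difference -1.28, adjusted p = 0.0370 by edgeR), but this call was lost on leaving out any 1 of HCT116 replicates 2, 3, 7, 8 and 9. CLDN4 differed by -1.02 on the log2 scale and was not called (edgeR adjusted p = 0.101), although it was without HCT116 replicate 1 (-1.15, edgeR adjusted p = 0.0433). Batch 4 held no DNMT1 KO library, so its libraries add to the HCT116 mean alone.

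CLDN2 (ENSG00000165376, chromosome X, 106900164 to 106930861, plus strand), the channel-forming claudin, measured 1.26 to 2.88 CPM in HCT116 (median 2.35). The DNMT1 KO libraries measured 3.46, 4.03, 2.25 and 2.85 CPM, so the groups overlapped, although 2 DNMT1 KO libraries were above all HCT116 libraries. The change of 0.57 on the log2 scale (SE 0.33) was not called (adjusted p = 0.292 by edgeR). RIPPLY1, on the opposite strand, shares 10.0% of its exon bases.

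CLDN12 (ENSG00000157224, chromosome 7, 90383721 to 90513402, plus strand), an atypical claudin whose protein lacks the usual binding motif for ZO proteins, measured 59.4 to 109 CPM in HCT116 (median 86.1). In DNMT1 KO it measured 78.5, 40.8, 85.5 and 58.4 CPM. The groups overlapped, and a log2 fold change of -0.38 (SE 0.27) had an edgeR adjusted p of 0.404. Parts of its exons are shared with 4 genes on the same strand, each covering 3.00 to 5.53% of its bases.

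CGN (ENSG00000143375, chromosome 1, 151510510 to 151538692, plus strand), which encodes the cytoplasmic plaque protein cingulin, measured 17.4 to 39.5 CPM in HCT116 (median 24.2). The DNMT1 KO libraries measured 11.6, 17.2, 18.0 and 11.3 CPM. Of these, 3 lay below all HCT116 libraries and replicate 3 lay above HCT116 replicate 1. On the log2 scale the change was -0.88 (SE 0.29, adjusted p = 0.0490 by edgeR), and the adjusted p was above 0.05 in 15 of 20 alternative analyses (0.0233 to 0.180 over all 20).

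**Figure D2:**
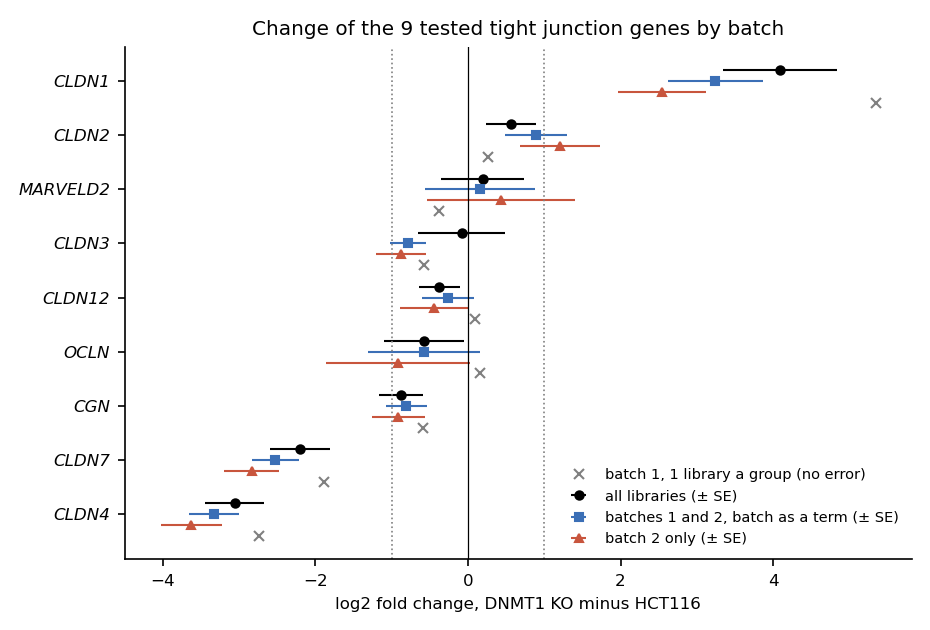
Log2 fold change of DNMT1 KO over HCT116 (horizontal axis) for the 9 tested genes, from all libraries, from batches 1 and 2 with batch as a term, from batch 2 alone (each ± SE) and as the ratio of the single libraries of batch 1. CLDN1 stays right of 1 and CLDN4 and CLDN7 stay left of -1 (dotted lines) throughout, whereas CLDN3 lies near 0 over all libraries and between -0.88 and -0.58 within batches.

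The remaining 3 genes, OCLN, MARVELD2 and TJP1, had very few counts in both lines. OCLN (ENSG00000197822, chromosome 5, 69492292 to 69558104, plus strand) had 22, 48, 44, 56, 50 and 60 counts in HCT116 and 30, 6, 68 and 10 in DNMT1 KO. MARVELD2 (ENSG00000152939, chromosome 5, 69415065 to 69444330, plus strand) had 36, 32, 6, 48, 30 and 32 counts in HCT116 and 34, 12, 62 and 17 in DNMT1 KO. TJP1 (ENSG00000104067, chromosome 15, 29699367 to 29968915, minus strand) had 2, 0, 4, 28, 14 and 30 counts in HCT116 and 0, 0, 4 and 25 in DNMT1 KO. The groups overlapped for all 3. Log2 fold changes were -0.58 for OCLN (SE 0.52, edgeR adjusted p = 0.524) and 0.19 for MARVELD2 (SE 0.54, edgeR adjusted p = 0.856), and TJP1 was not tested.

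The hg38 assembly carries alternative contigs that repeat stretches of the chromosomes, and the exons of these 3 genes are among the repeated sequence. Exons of each gene were cut into windows of 50 bases, the length of a read, and searched for in the whole assembly of 455 sequences, 261 of them alternative contigs. The same sequence stood on an alternative contig for 98.4% of TJP1 windows, 97.6% of MARVELD2 windows and 94.4% of OCLN windows. OCLN windows were also repeated on the chromosomes themselves in 66.9% of cases, and MARVELD2 windows in 6.93%. For the other 7 genes at most 0.089% of windows stood on an alternative contig. Reads that match 2 places equally well get a low mapping quality, and the authors removed reads of low mapping quality.

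Across the genome, 683 of the 688 protein-coding genes with at least 90% of windows on an alternative contig (99.3%) had a mean below 1 CPM. Among the 13414 genes with no such window, 43.7% did. Within 2000 kb of the start of OCLN lay 16 genes of this kind, OCLN itself and MARVELD2 included, all below 1 CPM. Among them were CDK7 (a kinase of general transcription), TAF9 and RAD17, whereas CCNB1 and CENPH nearby, with no such window, measured 248 and 11.5 CPM. Around TJP1 all 20 such genes, TJP1 itself included, were below 1 CPM. The 1 gene there with no such window, GOLGA6L7, was also below 1 CPM (0.0175 CPM). HERC2, with 86.3% of windows on an alternative contig, measured 7.17 CPM. The genes around TJP1 therefore give no contrast between repeated and unrepeated genes. Around CLDN4 there were 0 such genes among 47, CLDN4 itself included. Whether the reference used for mapping held the alternative contigs is not given in the sources used here, and its part in these counts was not tested. The counts of OCLN, MARVELD2 and TJP1 are therefore given without reading them as RNA levels.

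**Figure D3:**
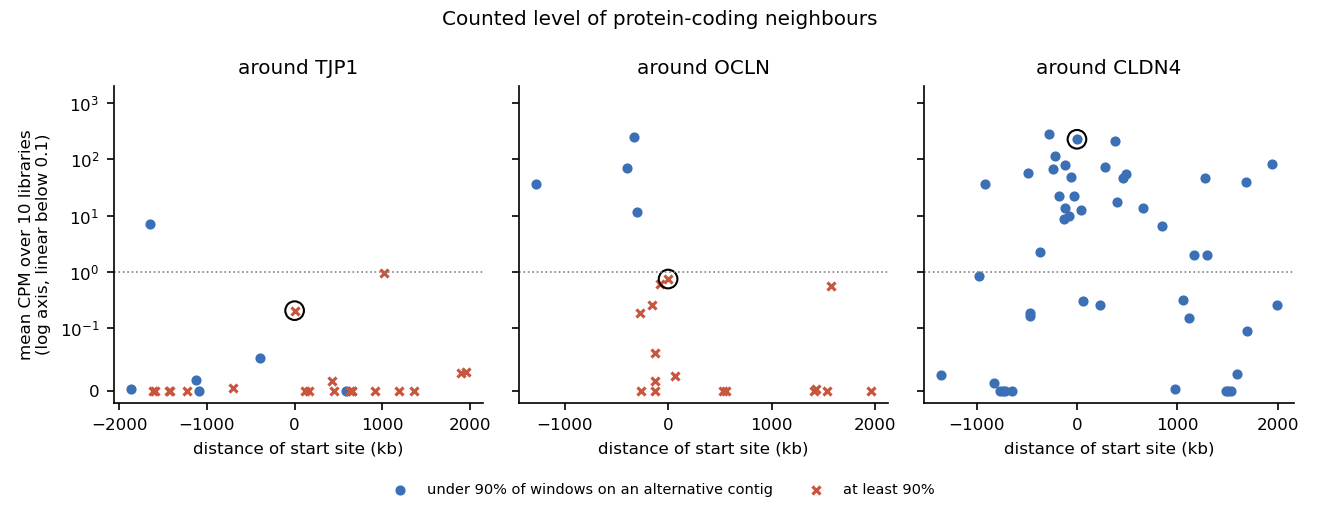
Mean CPM over 10 libraries (vertical, logarithmic above 0.1 and linear below) of protein-coding genes within 2000 kb of the start of TJP1, OCLN and CLDN4 (circled), by distance in kb. Red crosses are genes with at least 90% of exon windows also on an alternative contig, all below the dotted line at 1 CPM, and blue points are the other genes.

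Per length, the order of the claudins differed between the lines. In HCT116, CLDN7 had the highest level at 137 ± 71.2 RPKM (CPM per kb of exon, SD, n = 6), followed by CLDN4 at 74.4 ± 35.6 RPKM, and this order held in all 6 libraries. CLDN3 followed at 17.7 ± 14.8 RPKM and CLDN12 at 12.8 ± 3.35 RPKM, with CLDN3 above CLDN12 in only 3 of 6 libraries. CGN (4.04 ± 1.31 RPKM) and CLDN2 (0.62 ± 0.18 RPKM) came next, each below the gene before it in all 6 libraries. In DNMT1 KO, CLDN7 stayed first at 29.8 ± 7.80 RPKM (SD, n = 4), and CLDN3 was second at 16.6 ± 7.14 RPKM in all 4 libraries. CLDN12 at 9.81 ± 3.02 RPKM and CLDN4 at 8.95 ± 2.40 RPKM could not be ordered, since CLDN12 was above CLDN4 in 2 of 4 libraries. CLDN1, at 1.28 ± 0.34 RPKM, was above CLDN2, at 0.92 ± 0.23 RPKM, in all 4 libraries. These orders rest on the length of all annotated exons of a gene, 4702 bases for CLDN4 and 2492 for CLDN7. In CPM, CLDN4 averaged 350 and CLDN7 342 in HCT116. A shorter CLDN4 transcript would raise its RPKM in both lines, and transcript use was not tested, so the rank of CLDN4 is not settled.

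The make-up of claudin RNA was then taken over all 24 claudin genes in the tables, as the share of each in the summed RPKM. The sum was 249 ± 116 RPKM in HCT116 (n = 6) and 75.3 ± 18.5 RPKM in DNMT1 KO (n = 4), and it did not overlap between groups, with 133 RPKM as the lowest HCT116 value and 99.1 RPKM as the highest DNMT1 KO value. CLDN4 made up 24.7 to 35.5% in HCT116 and 10.6 to 14.1% in DNMT1 KO, and CLDN7 49.3 to 60.4% and 34.6 to 43.9%. CLDN3 made up 2.72 to 14.7% in HCT116 and 17.6 to 27.5% in DNMT1 KO. Its level was not called over all libraries, and within batches it was lower in DNMT1 KO (log2 ratios of -0.58 in batch 1 and -0.89 in batch 2). Shares add up to a fixed total, so a gene gains share when others fall. CLDN1 made up 0.026 ± 0.025% of the sum in HCT116 and 1.81 ± 0.77% in DNMT1 KO. These shares rest on the same exon lengths, are descriptions and were not tested.

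**Figure D4:**
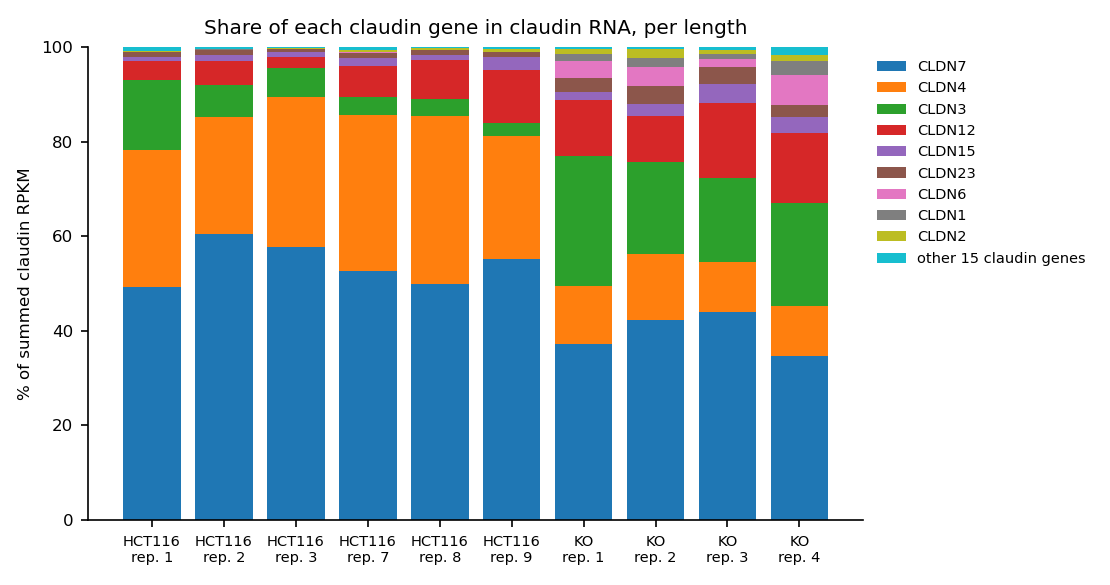
Share of each claudin gene in the summed RPKM of 24 claudin genes (vertical, percent), 1 bar per library. CLDN7 and CLDN4 together fill most of each HCT116 bar, and in the 4 DNMT1 KO bars the CLDN4 part is 10.6 to 14.1% and the CLDN3 part 17.6 to 27.5%.

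Of the 18 claudin genes outside the set, 4 passed the filter on low counts, 1 was called higher and 1 lower, beside 7.42% and 6.49% of all tested genes. CLDN6, a claudin of embryonic epithelia that adult tissues largely lack, was 0.228 ± 0.102 CPM in HCT116 and 4.93 ± 1.84 CPM in DNMT1 KO (log2 fold change 4.42, SE 0.42, edgeR adjusted p = 3.47e-06). CLDN9 was 1.40 ± 0.93 CPM in HCT116 and 0.266 ± 0.127 CPM in DNMT1 KO (log2 fold change -2.41, SE 0.61, edgeR adjusted p = 0.0135), a call lost without DNMT1 KO replicate 2 (edgeR adjusted p = 0.0529). Over the 4 tested genes the median was -0.24 on the log2 scale.

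CLDN4, CLDN6 and CLDN9 each have another claudin gene as a close neighbour, so the ratio within each of the 2 pairs was read per library. CLDN3 and CLDN4 lie 29.3 kb from each other on chromosome 7 by their GENCODE ends. The RefSeq promoter of CLDN4 lies further from CLDN3, from 73830746 to 73831045. The log2 ratio of CLDN4 to CLDN3 counts was 2.86, 3.71, 4.26, 4.99, 5.12 and 5.14 in HCT116 replicates 1, 2, 3, 7, 8 and 9. In DNMT1 KO replicates 1 to 4 it was 0.71, 1.42, 1.16 and 0.84. The ratio does not depend on the scale of a library, and no DNMT1 KO library reached the lowest HCT116 value, in batch 1 (a difference of -2.15) as in batch 2 (-2.70). CLDN6 and CLDN9 lie 206 bases from each other on chromosome 16 and on opposite strands, ending towards one another, and without strand in the counting any reads past the end of either gene cannot be assigned. The log2 ratio of CLDN6 to CLDN9 ran from -4.09 to -0.87 in HCT116 and from 3.51 to 5.39 in DNMT1 KO. Both pairs were chosen after their values were seen, so no test is given.

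Among 11 other membrane proteins of the junction, all tested, 2 were called higher and 4 lower (7.42% and 6.49% of all tested genes), with a median log2 fold change of -0.64. MARVELD3, the relative of occludin and tricellulin, was 36.2 ± 5.63 CPM in HCT116 and 11.8 ± 2.27 CPM in DNMT1 KO (log2 fold change -1.61, edgeR adjusted p = 0.000162). F11R, which encodes the adhesion molecule JAM-A, was 178 ± 46.3 CPM and 78.2 ± 15.3 CPM (log2 fold change -1.19, edgeR adjusted p = 0.00425). LSR, a protein of tricellular contacts, and CRB3, a polarity protein, were the other 2 called lower. JAM2 was 0.314 ± 0.105 CPM in HCT116 and 2.03 ± 1.04 CPM in DNMT1 KO (log2 fold change 2.68, edgeR adjusted p = 0.000401), and BVES 5.08 ± 1.04 CPM and 14.3 ± 7.57 CPM (log2 fold change 1.49, edgeR adjusted p = 0.00428). With library totals alone 2 of the 11 were called lower rather than 4, beside 4.96% of all tested genes at that scaling.

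Of 22 scaffold and polarity proteins, 21 were tested, 1 was called higher and 4 lower, against a background of 7.42% and 6.49%, with a median log2 fold change of -0.28. The counts were 2 higher and 3 lower with library totals alone (background 9.74% and 4.96%), and also without HCT116 replicate 2. PRKCI, the atypical protein kinase C of the apical polarity complex, was 39.0 ± 12.9 CPM in HCT116 and 3.49 ± 1.51 CPM in DNMT1 KO (log2 fold change -3.48, edgeR adjusted p = 8.87e-06). PARD6B, its partner in that complex, was 47.2 ± 9.93 CPM and 17.5 ± 5.59 CPM (log2 fold change -1.43, edgeR adjusted p = 0.00216). TJP3, which encodes ZO-3, was also called lower. AMOT, angiomotin, was called higher at 10.7 ± 3.13 CPM in HCT116 and 40.4 ± 9.28 CPM in DNMT1 KO (log2 fold change 1.92, edgeR adjusted p = 9.97e-05).

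Among 7 claudin partners and adherens junction genes, all tested, 0 were called higher and 3 lower, where all tested genes gave 7.42% and 6.49%, and the median log2 fold change was -1.10. DESeq2 also called 0 higher, and 1, CTNNB1, was higher at an unadjusted p under 0.05 (log2 fold change 0.58, edgeR adjusted p = 0.0997). EPCAM, the partner of CLDN7, was 307 ± 72.8 CPM in HCT116 and 72.8 ± 14.5 CPM in DNMT1 KO (log2 fold change -2.08, SE 0.26, edgeR adjusted p = 3.98e-05). CDH1, E-cadherin, was 148 ± 121 CPM and 11.5 ± 5.36 CPM (log2 fold change -3.67, SE 0.68, edgeR adjusted p = 0.00138).

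Among 17 regulators known to act on tight junction genes, 14 were tested, 2 were called higher and 6 lower, next to 7.42% and 6.49% of all tested genes, and the median log2 fold change was -0.52. Leaving out 1 library left 4 to 6 called lower. Of the E-box repressors of the SNAI and ZEB families, SNAI2 and ZEB1 were the 2 called higher, and SNAI1 and ZEB2 were not. SNAI1 was 19.5 ± 6.54 CPM in HCT116 and 21.7 ± 0.78 CPM in DNMT1 KO (log2 fold change 0.16, edgeR adjusted p = 0.745). ZEB2 had 2 counts over the HCT116 libraries and 0 over the DNMT1 KO libraries and was not tested. SNAI2 was 0.563 ± 0.491 CPM in HCT116 and 8.45 ± 2.23 CPM in DNMT1 KO (log2 fold change 3.93, edgeR adjusted p = 6.42e-05, or 4.54 without HCT116 replicate 3), and ZEB1 was 5.61 ± 2.82 CPM and 43.5 ± 14.3 CPM (log2 fold change 2.95, edgeR adjusted p = 6.34e-05). GRHL2, an activator of claudin genes and CDH1, was 37.3 ± 16.0 CPM in HCT116 and 0.469 ± 0.351 CPM in DNMT1 KO (log2 fold change -6.25, edgeR adjusted p = 2.58e-06). TWIST1, a repressor of epithelial genes, was also lower, at 2.58 ± 0.30 CPM in HCT116 against 0 counts in DNMT1 KO, at least 161-fold lower, taking 3 counts over the group as the limit. The other 4 called lower were OVOL1, KLF5, HNF4A and ESRP1, of which ESRP1 encodes a splicing regulator rather than a transcription factor. Binding of these factors was not measured.

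**Figure D5:**
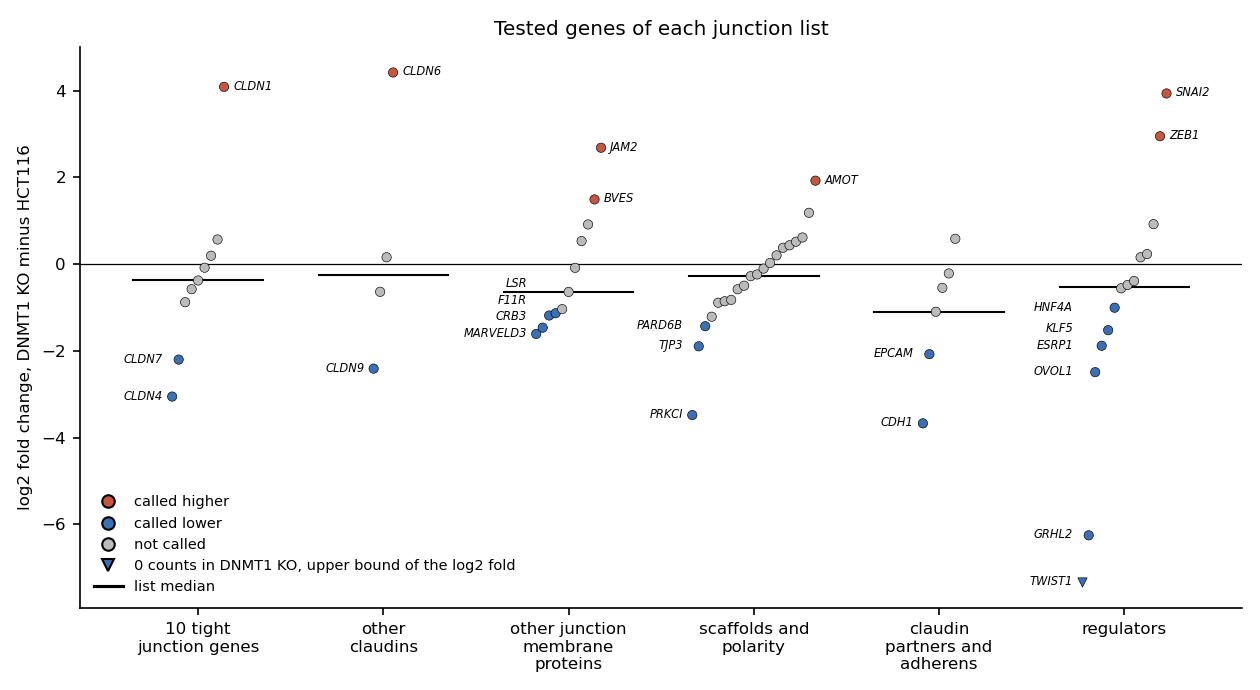
Log2 fold change of DNMT1 KO over HCT116 (vertical) for the tested genes of the set and of the 5 other junction lists, with called genes named, 2 called genes not drawn, and a line at the median of each whole list. The triangle is TWIST1, with 0 counts in DNMT1 KO, drawn at the limit that 3 counts allow, so that its fold is at least as large as shown, and the medians of the lists lie between -1.10 and -0.24.

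The promoter sequences of the set were searched for motifs of these factors on both strands. Letters CACCTG or CAGGTG stood in 5 of the 16 RefSeq promoters of the set, from 4 of the 10 genes (CLDN3, CLDN7, OCLN and TJP1), and in 20.6% of all promoters of 300 bases. The second start of CLDN7, 735 bases downstream of the first, held 5 of these matches, at -174, -135, -20, -9 and 6 bases from the start, whereas the first CLDN7 start, CLDN1 and CLDN4 held 0. Letters AACNNGTT, the core of the Grainyhead motif, stood in 1 of the 16, that of CGN, and in 3.52% of all promoters. None of the 16 promoters held both motifs, so no matches overlapped. The motifs were chosen with the changes of the factors known, and a match describes letters alone.

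The genes whose profiles over the 10 libraries lay nearest to those of CLDN1 and CLDN4 were found by Euclidean distance between log2(CPM + 0.5) values, each centred on the gene's own mean. For CLDN1 they were ABCA4 at a distance of 0.91, CLDN6 at 1.08 and RERG at 1.11, where the median over all tested genes was 4.74. For CLDN4 they were RINL at 0.87, the P-cadherin gene CDH3 at 0.91 and the fucosyltransferase gene FUT2 at 0.96, with a median of 5.05. CDH3 measured 217 CPM in HCT116 and 22.2 CPM in DNMT1 KO on average.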

How the data were processed

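Poly(A)-selected stranded libraries were sequenced as 50-base read pairs. The authors trimmed reads with Trim Galore 0.4.1, aligned the pairs to hg38 by bowtie2 (an aligner that leaves reads across exon junctions unsplit), removed reads of low mapping quality, and counted exonic reads per gene with featureCounts. The authors deposited unnormalised gene counts, 1 table for each library. A further 3 HCT116 tables match no listed sample and were not used. The study gives the replicates as independent cultures. Genes were named, and coordinates taken, from GENCODE release 44.

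Counts were tested with edgeR 4.0.16 in R 4.3.3 (TMM factors, filterByExpr, quasi-likelihood, group as the sole term, two-sided, Benjamini-Hochberg over all genes tested). SE was taken as the absolute log2 fold change over the root of the F statistic. Procedures were tested on simulated data. The set, the junction and marker lists and the tests were chosen with earlier results of these data known. All genes of the set were named, from each other list up to 4 called genes with the smallest adjusted p (others called are named without values, and 2 called genes, counted in their lists, are not reported here), and the 3 nearest profiles of 2 genes. KRT8, VIL1, LSR, CRB3, TJP3, SNAI1, ZEB2, CLPTM1L and SSBP1 were named after their values were seen. So were the fibroblast, endothelial and leukocyte markers and the neighbours of OCLN and TJP1. Alternatives were other scalings and filters, DESeq2 1.42.0, batch terms, halved counts, a replicate block and leaving out each library.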

Additional observations from a re-analysis of the deposited data

Results flagged for a closer look

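Within each group, the highest and lowest library of each of the 10 genes were compared with the others by Dixon's criterion, over 20 groups of values, of which chance would flag about 1. There were 2 such libraries. CLDN3 in DNMT1 KO replicate 1 measured 34.7 CPM, and the other 3 DNMT1 KO libraries 15.6 to 18.1 CPM. HCT116 replicate 1, from the same batch, was also the highest of its group for this gene at 52.0 CPM. TJP1 in DNMT1 KO replicate 4 measured 0.869 CPM (25 counts), and the other 3 measured 0 to 0.0635 CPM. This library is the single one of batch 3 and the one without an excess of even counts. The 688 genes repeated on alternative contigs, TJP1 among them, summed to 77.4 CPM in it and to 50.2 to 115 CPM over all libraries. Of these genes CLPTM1L had a mean of 54.3 CPM and the next, SSBP1, 3.74 CPM. The sums therefore rest largely on CLPTM1L and cannot show whether the other repeated genes were raised in this library. The cause was not tested for either library.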

How the results depend on the processing

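CLDN4 and CLDN7 were called in all 20 alternatives, with log2 fold changes of -3.63 to -2.76 and -2.84 to -1.93, and CLDN1 in all 19 that tested it (2.54 to 4.90). Requiring at least 10 counts in every library left CLDN1 untested, so 0 genes of the set were called higher, and gave 734 genes higher and 766 lower. Batch 2 alone gave 815 higher and 798 lower. Leaving out 1 library gave 1214 to 1587 genes higher and 987 to 1250 lower. For CLDN3 it gave -0.43 to 0.37, above 0 without any 1 of HCT116 replicates 1 to 3 or DNMT1 KO replicates 2 and 4, and library totals alone gave 0.12. MARVELD2 ran from -0.048, without DNMT1 KO replicate 3, to 0.49. In HCT116 batch 4 against batches 1 and 2, 577 genes higher and 921 lower became 46 to 1800 and 187 to 1770. Each of the 6 libraries moved a count by over 1.5 times: the higher and lower counts were 1800 and 1770 without replicate 1, 46 and 299 without replicate 2, 273 and 575 without 3, 178 and 246 without 7, 122 and 368 without 8, and 47 and 187 without 9. In that comparison, log2 differences ran from -0.046 to 0.34 for CLDN12, -0.88 to 0.16 for MARVELD2 and -0.45 to 0.19 for CGN. Without HCT116 replicate 1, CLDN1 was tested and called lower in batch 4 (-2.83, edgeR adjusted p = 0.0376), CLDN4 was also called (-1.15), and 4 genes of the set were called lower rather than 2. The cause was not tested.

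Replicates 1 to 3 share a number between groups. For these same-number libraries, correlation coefficients between groups were 0.55, -0.27 and 0.37. Libraries with unlike numbers were not compared, so these values cannot decide whether the numbers pair the libraries. A fit with the replicate block called 1232 genes higher and 1235 lower, and 1 and 2 genes of the set. With it CLDN1 was 3.30, CLDN4 -3.30 and CLDN7 -2.53, and CGN (edgeR adjusted p = 0.117) and PARD6B (edgeR adjusted p = 0.0513) no longer passed. In batch 2 alone JAM2, BVES and PARD6B did not pass, and SNAI2 was 2.94 rather than 3.93. Of all values recomputed, 860 were unchanged in direction and call or moved little, 35 moved by more, 25 no longer passed their threshold, 1 newly passed it and 11 changed sign. Batch 3 and batch 4 each held 1 group, so within them batch and group cannot be told apart. Counts of at most 68 a library limit OCLN, MARVELD2 and TJP1, and CLDN1 in HCT116.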
